A study of Mus musculus with 8 samples.

Results

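The genes described here are the mouse zinc finger genes named Zfp plus a number whose RNA was detected on every array of a study of DNA damage in embryonic fibroblasts. The genes were selected on their detection and signal. A gene was taken when its symbol, found through the RefSeq transcript of its probe, had that form and a probe was marked well above background on all 8 arrays. Where a gene had several such probes, the one with the highest mean signal stood for it, and 1 symbol of this form was left out by the rule. This gave 260 genes, of 307 such genes with a probe on the array and of 12597 gene symbols detected on all arrays. The detection mark and the mean signal therefore chose the genes, so their levels are given as a description, while no difference between genotypes or times entered the choice. A gene undetected on the arrays of 1 genotype or time could not be taken.

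RNA came from mouse embryonic fibroblasts, connective tissue cells grown from embryos, of Atm+/+ and Atm-/- littermates. Atm encodes a protein kinase that is switched on by DNA double-strand breaks and passes the signal to p53 and the cell cycle checkpoints. For each genotype there was 1 untreated culture (0 h) and 1 culture each taken 4, 8 and 24 h after adding the drug neocarzinostatin (NCS), which cuts both DNA strands much as ionizing radiation does. All cultures were kept with 15% serum. Ribosomal RNA was removed and the rest was copied with random primers for one-colour arrays. The labels give neither the NCS dose nor how many embryos or lines the cells came from, so p-values measure the spread between these 8 arrays.

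Most genes with Zfp names encode chains of C2H2 zinc fingers, each of which can contact a few bases of DNA. In many the fingers follow a KRAB domain, which recruits the corepressor TRIM28 (KAP1). TRIM28 in turn brings the histone methyltransferase SETDB1 and HP1 proteins, and this machinery is best known for silencing retroelements and keeping parental imprints. The KRAB genes lie in clusters that arose by tandem duplication, many of them on mouse chromosome 7. ATM is known to phosphorylate TRIM28 after double-strand breaks, and a few Zfp names belong to unrelated proteins such as the RNA-binding tristetraprolin, Zfp36.

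All levels are log2 signals after subtraction of the 75th percentile over the array's 37246 probes, so 0 is that percentile and a difference of 1 is 2-fold. A probe's level depends on its sequence, so levels are compared between arrays and not between genes. The Atm+/+ arrays lay on one slide and the Atm-/- arrays on another, and 4 Y-linked genes were detected on the Atm+/+ arrays only. Xist was detected on all 4 Atm-/- arrays, at -3.21 to -2.90, and on the Atm+/+ 8 h array, at -4.92, where the other Atm+/+ arrays read -8.13 to -7.83 without passing the detection mark. A second Xist probe passed on 4 Atm-/- and 0 Atm+/+ arrays. Genotype can therefore not be told apart from slide or embryo sex, nor time after NCS from time in culture and array position, which ran in the same order. Between 57.3% and 61.4% of spots were well above background on an array. The Atm+/+ 24 h array had 1545 spots marked as outliers, against 44 to 203 on the others, and it accounts for 23 of the 32 readings of Zfp genes that were left out. A total of 235 of the 260 genes had a value on all 8 arrays. The Atm probe itself was lower in Atm-/- cells by a log2 difference of -1.24 ± 0.18 (SE, n = 4 arrays per genotype, limma adjusted p = 0.0137). All 13 fibroblast markers were detected on every array. Of these, 5 were lower in Atm-/- cells and 0 higher, with Pdgfra at -1.16 ± 0.11 and Thy1 at -0.72 ± 0.08, and their summed level was 699 to 802 in Atm-/- against 847 to 919 in Atm+/+ cells (linear scale, the array's 75th percentile as 1). Markers of other cells differed too: 7 of 9 macrophage markers were detected, all 7 lower in Atm-/- cells, where their summed level was 10.03 to 17.2 against 21.9 to 39.0 in Atm+/+ cells. Ptprc and Cd68, which define blood cells and macrophages, were not detected. Of 7 epithelial markers 6 were higher in Atm-/- cells (summed level 3.57 to 6.89 against 2.02 to 3.48), as were 3 of 6 endothelial markers (2.55 to 5.53 against 1.16 to 1.94). The part of these cells in the results below was not tested, and fewer cells of a type and less RNA per cell cannot be told apart.

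The 260 genes lay mainly on chromosome 7, with 66 genes, and on chromosomes 17, 13, 8 and 4, with 35, 19, 17 and 16. Their median level lay between -1.46 and -1.18 on the 8 arrays. At the edge of the detection mark, where each probe is read against its own background, the genes taken included Zfp830 at a mean level of -5.34, Zfp112 at -5.31 and Zfp772 at -5.21. Just outside were Zfp568 at -4.35, Zfp316 at -5.003 and Zfp958 at -5.42, each detected on 7 arrays. Of the 47 genes not taken, 24 were detected on no array and 23 on 1 to 7. Among these, Zfp551 passed the mark on 4 Atm-/- arrays and 0 Atm+/+ arrays, and Zfp974 on 1 and 4, differences that the fit of the 260 genes does not cover.

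The levels varied little. Across the 8 arrays the range of a gene had a median of 0.53 on the log2 scale over the 235 complete genes and of 0.66 over 18499 complete probes detected on all arrays. It stayed under 1 for 87.7% of the genes and 76.1% of the probes. Zfp410, whose protein is known in mouse and human cells for switching on the chromatin remodeller gene Chd4, had the narrowest range, 0.16. Its level was 1.40, 1.37, 1.26 and 1.38 in Atm+/+ cells at 0, 4, 8 and 24 h and 1.42, 1.40, 1.40 and 1.295 in Atm-/- cells. Chd4 itself differed by 0.01 ± 0.07 between genotypes (SE, adjusted p = 0.934). Zfp831 had the widest range, 2.37.

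The genotype comparison asks which genes differed between Atm-/- and Atm+/+ fibroblasts with time point held fixed. Of the 260 Zfp genes 17 were called at an adjusted p under 0.05, which is 6.54%, against 14.7% of all 23297 probes tested and 13.8% of those detected on all arrays. There were 7 higher in Atm-/- cells (all probes 7.28%) and 10 lower (all probes 7.38%). The median difference was -0.02 over the Zfp genes and 0.01 over all probes, and it was below 0 for the Zfp genes at every scaling tried. The median size without sign was 0.14 against 0.17 over all probes detected on every array. A size over 0.5 was seen in 14 Zfp genes, or 5.39%, and in 13.3% of all detected probes. At an unadjusted p under 0.05 there were 54 Zfp genes, or 20.8%, against 31.9% of all 23297 probes tested. The 4 arrays of one genotype did not overlap the 4 of the other for 33 of the 235 complete genes, or 14.04%, where 17.7% of all such probes did not overlap. Of these 33, 21 were lower and 12 higher in Atm-/- cells. An unadjusted 95% interval of the difference lay within 0.5 on either side of 0 for 149 of the 235 genes, or 63.4%, and for 57% of probes. The count of 17 depended on single time points. It was 1, 1 and 3 without the 0, 4 and 8 h arrays and 28 without the 24 h arrays. Leaving out 1 array of a time point must give the same counts and is no further check. The time term then takes up the array that remains. The share called over all probes moved as well, from 14.7% to 4.82%, 4.65% and 5.65% without the 0, 4 and 8 h arrays and to 18.1% without the 24 h arrays. The split of 7 higher and 10 lower became 5 and 12 with the normexp background and 1 and 10 with marked spots removed before scaling.

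**Figure D1:**
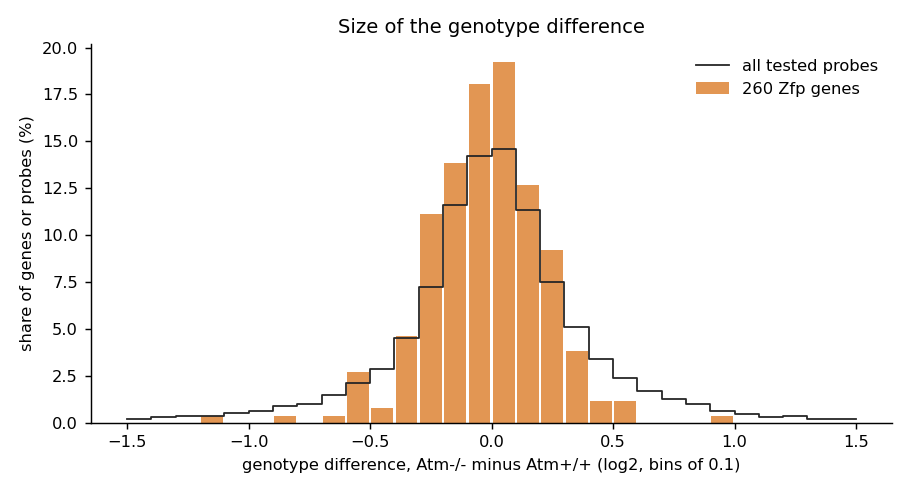
Share of the 260 Zfp genes (bars) and of all 23297 tested probes (line) in bins of the log2 difference between Atm-/- and Atm+/+ arrays, drawn from -1.5 to 1.5. The Zfp genes crowd more closely around 0, and 14 of them lie beyond 0.5 on either side. The line includes probes detected on as few as 2 arrays, while the Zfp genes were detected on all 8.

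The gene with the largest rise was Zfp109, a zinc finger gene of a cluster on chromosome 7. Its level was -4.17, -4.01, -3.83 and -3.98 in Atm+/+ cells at 0, 4, 8 and 24 h, and -3.01, -2.85, -3.02 and -3.29 in Atm-/- cells. Every Atm-/- array was above every Atm+/+ array. The difference was 0.95 ± 0.11 (SE, n = 4 arrays per genotype, adjusted p = 0.00872), and Zfp109 was the only one of the 17 that was still called whichever time point was left out.

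Zfp697 rose next, by 0.60 ± 0.09 (adjusted p = 0.0155). It stood at 1.12, 1.22, 1.02 and 0.71 in Atm+/+ cells and at 1.69, 1.72, 1.85 and 1.20 in Atm-/- cells, so the Atm-/- 24 h array overlapped the other genotype. Zfp711 lies on the X chromosome, and variants of its human counterpart ZNF711 cause X-linked intellectual disability. Its level was -2.39, -2.34, -3.12 and -3.01 in Atm+/+ cells and -1.88, -1.73, -2.29 and -2.63 in Atm-/- cells. The difference was 0.58 ± 0.10 (adjusted p = 0.0205), and the arrays of the genotypes overlapped, with lower levels at 8 and 24 h in both.

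The other 4 higher genes did not overlap between genotypes. For called genes, here and below, lack of overlap is a description, since the test used the same arrays. Zfp579 lay at 0.92 to 1.07 in Atm+/+ cells and at 1.32 to 1.70 in Atm-/- cells, a difference of 0.51 ± 0.09 (adjusted p = 0.025). Zfp30, which has been linked in mice to the recruitment of neutrophils to the airway, lay at -0.90 to -0.69 and at -0.36 to -0.16, a difference of 0.48 ± 0.08. Zfp37 was nearly flat in Atm+/+ cells, at -0.17 to -0.13, and lay at 0.16 to 0.34 in Atm-/- cells, a difference of 0.40 ± 0.07. Zfp35 on chromosome 18 lay at -1.53 to -1.38 and -1.18 to -0.98, a difference of 0.34 ± 0.07. It follows that all 4 were higher in Atm-/- cells at each of the 4 time points.

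Among the 10 genes that fell, the difference of Zfp831 was the largest and also the least even. Its level was -3.74, -3.90, -3.81 and -3.30 in Atm+/+ cells and -5.66, -4.56, -5.38 and -3.93 in Atm-/- cells. The Atm-/- 24 h array was close to the Atm+/+ arrays and the Atm-/- 0 and 8 h arrays were far below them. The difference was -1.20 ± 0.26 (SE, adjusted p = 0.0399). Zfp111 showed a like pattern, at -4.56, -4.47, -4.56 and -4.43 in Atm+/+ cells and -5.33, -5.73, -5.66 and -4.63 in Atm-/- cells, with a difference of -0.83 ± 0.19 (adjusted p = 0.047). Here too the Atm-/- 24 h array came nearest to the other genotype. The lowest Atm-/- readings of both genes are near the mean levels of the dimmest genes taken, -5.34 and -5.31, so these sizes are uncertain. Under the 9 other ways of processing the difference ran from -1.27 to -0.78 for Zfp831 and from -0.91 to -0.67 for Zfp111. Each was called under 7 of the 9.

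Zfp114 was more even. It stood at -3.98, -3.90, -3.96 and -3.77 in Atm+/+ cells and at -4.57, -4.43, -4.47 and -4.53 in Atm-/- cells, a difference of -0.60 ± 0.08 (adjusted p = 0.0101). Zfp532 on chromosome 18, whose human counterpart ZNF532 is a fusion partner of NUTM1 in NUT carcinoma, stood at 1.16, 1.22, 1.24 and 1.35 and at 0.65, 0.63, 0.74 and 0.76, a difference of -0.55 ± 0.07 (adjusted p = 0.00901). Both were lower in Atm-/- cells at each of the 4 time points. Together with Zfp109, Zfp781 and Zfp951 they were the 5 genes called under all 9 other ways of processing the arrays.

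Zfp217 fell by 0.46 on the log2 scale (SE 0.10, adjusted p = 0.0448). Its human counterpart ZNF217 is amplified in breast cancer and joins corepressor complexes, and the mouse gene is known from fat cell formation. It stood at 1.08, 1.01, 0.71 and 1.05 in Atm+/+ cells and at 0.36, 0.50, 0.48 and 0.67 in Atm-/- cells. The lowest Atm+/+ array, at 8 h, was only slightly above the highest Atm-/- array, at 24 h. A second probe of Zfp217 gave -0.52 ± 0.08 and was called too (adjusted p = 0.0163).

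The remaining lower genes had differences of -0.58 ± 0.10 for Zfp273, -0.55 ± 0.07 for Zfp951, -0.55 ± 0.08 for Zfp781, -0.41 ± 0.09 for Zfp940 and -0.37 ± 0.08 for Zfp397, the last on chromosome 18. None overlapped between the genotypes. Zfp273 came closest to it, with -4.19 on the Atm-/- 24 h array and -4.17 on the Atm+/+ 4 h array.

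**Figure D2:**
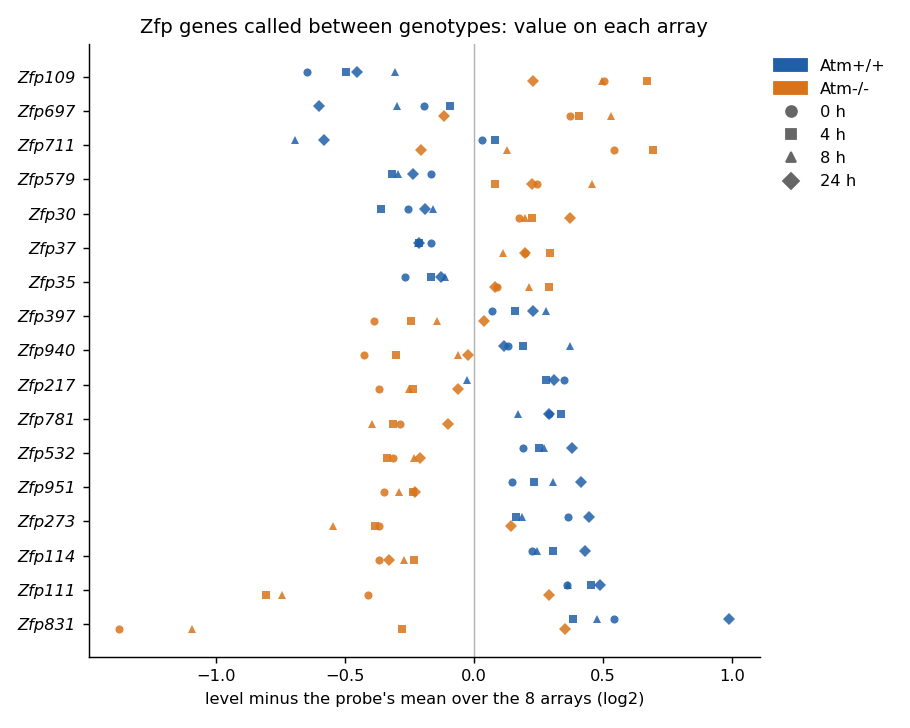
Level of the 17 called Zfp genes on each array as a log2 difference from the probe's mean over the 8 arrays, coloured by genotype and shaped by time point. The genotypes overlap only for Zfp697 and Zfp711. For Zfp831, Zfp111 and Zfp273 the Atm-/- 24 h array lies nearest to the Atm+/+ arrays. It does so for Zfp109, Zfp697, Zfp711, Zfp217 and Zfp532 too.

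Other probes allowed a check within the array. For 36 of the genes 45 further probes were detected on all arrays, and 35 of these 45 had the same sign of genotype difference as the probe taken (Pearson r = 0.72 across probe pairs, which share the RNA of the same 8 arrays). A further 2 genes were called by their other probe only. These were Zfp14, with 0.33 ± 0.07 (adjusted p = 0.0363) beside 0.32 for the probe taken, and Zfp62, with -0.48 ± 0.08 (adjusted p = 0.0242) beside -0.22.

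Of the 17 called genes 3 were among the 8 on chromosome 18 and 6 among the 66 on chromosome 7. The share called was 6.54% over all 260 genes and 14.7% over all probes. On chromosome 7 Zfp genes stand next to each other in the RefSeq gene order. One run there holds 10 Zfp genes in a row, and all 10 were detected. In order the genotype differences were 0.13 for Zfp180, -0.16 for Zfp112, -0.35 for Zfp235, -0.60 for Zfp114, -0.83 for Zfp111, 0.95 for Zfp109, 0.37 for Zfp108, -0.07 for Zfp93, 0.19 for Zfp61 and 0.17 for Zfp94. The called genes Zfp114, Zfp111 and Zfp109 are direct neighbours, and the first 2 were lower and the third higher in Atm-/- cells. The 7 others did not pass the test, with Zfp235 nearest to it at -0.35 ± 0.13 (adjusted p = 0.136). These genes are similar copies of one another, so that a probe may also take up RNA of a neighbour, which was not tested.

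**Figure D3:**
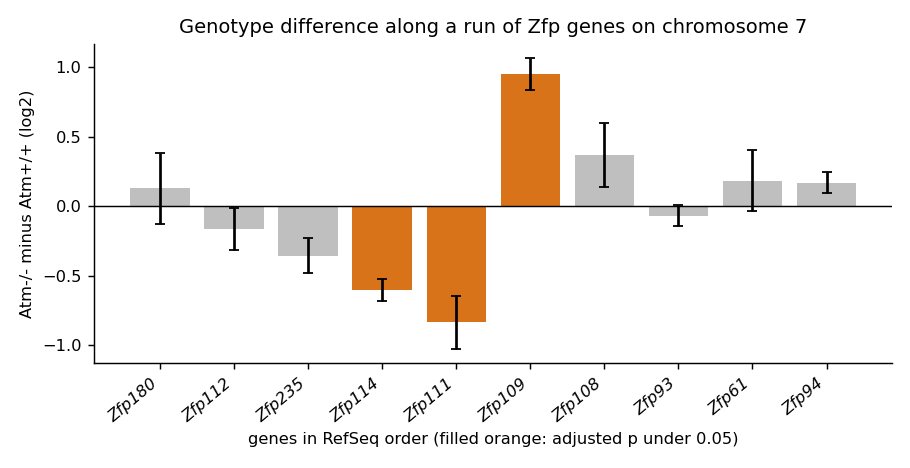
Log2 genotype difference with its standard error for 10 neighbouring Zfp genes on chromosome 7 in RefSeq order, called genes in orange. Zfp114 at -0.60 and Zfp111 at -0.83 stand next to Zfp109 at 0.95.

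Over all 63 pairs of adjacent detected Zfp genes, 30 pairs, or 47.6%, had the same sign of genotype difference (Pearson r = 0.09 across pairs, a description). The longest run holds 15 Zfp genes from Zfp84 to Zfp146, of which 11 are among those studied. It includes the called genes Zfp30, at 0.48, and Zfp940, at -0.41, with 1 gene between them (Zfp790, 0.26 ± 0.07, adjusted p = 0.0718).

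The promoters of the neighbours Zfp109 and Zfp111, which moved in opposite directions, are shown because both hold the same short element. These are the 250 bases before the RefSeq start on the minus strand of mouse assembly GRCm38.p6, at chr7:24237599-24237848 for Zfp109 and chr7:24208150-24208399 for the first of 2 starts of Zfp111. Capitals mark TGGGAA followed, after any 1 base, by TGTAGT, which is part of the element bound by the activator STAF, which is encoded by Zfp143, itself one of the 260 genes.
Zfp109: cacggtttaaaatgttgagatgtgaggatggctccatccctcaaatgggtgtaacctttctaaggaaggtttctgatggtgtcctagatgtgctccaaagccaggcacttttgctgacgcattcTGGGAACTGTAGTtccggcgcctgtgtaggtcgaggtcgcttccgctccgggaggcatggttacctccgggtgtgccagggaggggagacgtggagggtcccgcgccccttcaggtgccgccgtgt
Zfp111: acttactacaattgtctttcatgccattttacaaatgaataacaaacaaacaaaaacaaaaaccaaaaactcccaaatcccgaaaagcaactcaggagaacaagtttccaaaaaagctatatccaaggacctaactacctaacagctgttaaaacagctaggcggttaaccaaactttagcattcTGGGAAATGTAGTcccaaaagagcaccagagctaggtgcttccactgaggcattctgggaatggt
The letters begin 126 bases before the start in Zfp109 and 65 before it in Zfp111. The bases before them are also shared, GCATTC in both. In the second start's promoter of Zfp111 the letters were not found. The same letters stood in Zfp273 and Zfp940, both lower in Atm-/- cells, and are shown with 8 bases on each side.
Zfp273: tagacttcTGGGAAATGTAGTttctctct
Zfp940: tggactccTGGGAAATGTAGTtcaagact

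The letters were searched on both strands from 250 bases before to 50 after each start, and a match is no proof of a binding site. A promoter entry was found for 215 of the 260 genes (none for Zfp114 and Zfp831), and 32 of the 215, or 14.9%, held the letters. Over all 27025 genes with a promoter entry the share was 0.921%. It was 1.27% over 17492 protein-coding genes and 1.69% over 9802 other genes detected on all arrays. The letters were in 15 of 60 of the Zfp genes on chromosome 7, or 25%, and in 17 of 155, or 11%, of those elsewhere. Other zinc finger families had none, with 0 of 28 Zbtb genes, 0 of 14 Zscan and Zkscan genes and 0 of 13 Klf genes. With each place in the genome counted once per gene, 30 of 36 matches in the Zfp genes ran in the direction of the gene, where 40.1% of 259 matches over all genes did. The median position of a match in the Zfp genes, from its first base to the nearest start, was -58.5 bases.

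Holding the letters went with no common direction between genotypes. Of the 32 genes with them 1 was called higher and 3 lower, with a median difference of -0.05, and of the 183 without them 4 were higher and 3 lower, with a median of 0.00. At 24 h after NCS the median change from 0 h was 0.19 with the letters and 0.04 without. Among other genes the medians at 24 h were -0.08 with and -0.06 without the letters. These medians are a description, and 0 of the 32 genes was called at 24 h. Zfp143 itself had levels of -0.08, -0.10 and -0.34 in Atm+/+ cells at 0, 4 and 8 h, with the 24 h reading left out, and -0.02, -0.13, -0.33 and -0.53 in Atm-/- cells. Its level was lower at each later time point of both genotypes, but the change at 24 h, which rests on Atm-/- cells, did not pass the test (-0.48 ± 0.14, adjusted p = 0.14).

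**Figure D4:**
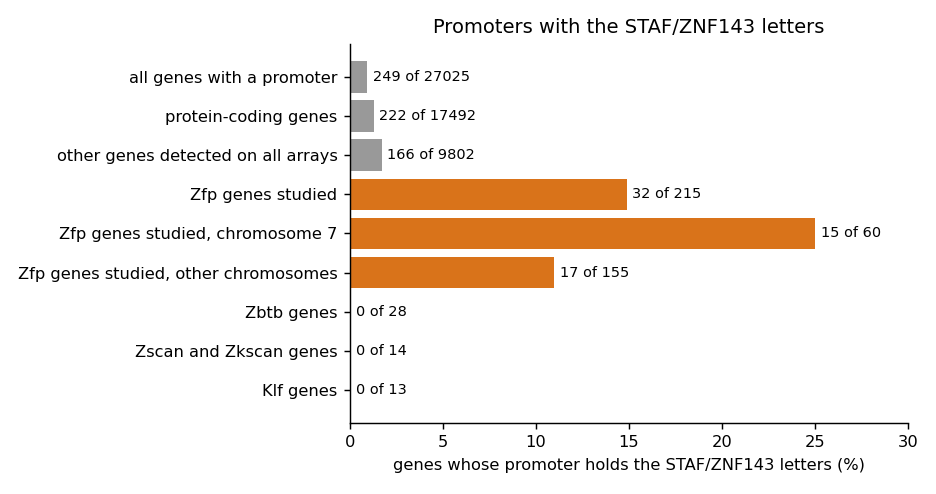
Share of genes whose RefSeq promoter (250 bases before to 50 after the start) holds the STAF letters, with the number of genes beside each bar. The Zfp genes reach 14.9% and those on chromosome 7 25%, while the other gene groups lie between 0 and 1.69%. The groups at 0 hold only 13 to 28 genes.

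The next comparisons ask how the Zfp genes changed after NCS. All of them use the same 2 untreated arrays, so they are not independent of each other. Few Zfp genes passed a test. For the 4, 8 and 24 h arrays together against 0 h, 0 of 257 Zfp genes were called by limma, against 0.207% of all probes, and the smallest adjusted p was 0.276. At 4 h 0 of 260 were called (all probes 0.103%), at 8 h 0 of 259 (all probes 0.258%), and over any change with time 0 of 257 (all probes 0.168%). At 24 h 1 of 258 was called, against 2.37% of all probes. Calls over all probes at 24 h fell from 550 to 7 without the Atm-/- 24 h array and to 0 without any 1 of the others. Leaving out an array also leaves fewer residual degrees of freedom. Without a 4 h or 8 h array the median change of all probes at 24 h stayed at -0.07. The loss of calls there does not show that the changes rest on those arrays. At an unadjusted p under 0.05 there were 21 Zfp genes for all treated arrays (8.17%, all probes 13.8%), 4 at 4 h (1.54%, all probes 4.03%), 10 at 8 h (3.86%, all probes 11.7%), 40 at 24 h (15.5%, all probes 26.1%) and 22 for any change (8.56%, all probes 20.5%). The unadjusted 95% interval of the change over all treated arrays lay within 0.5 of 0 on the log2 scale for 162 of 235 Zfp genes. That is 68.9%, against 60.1% of probes. At 24 h it did so for 101 of 235, or 43.0%, against 32.0% of probes. Of 8 listed p53 target genes 7 were measured, and 0 of these was called over all treated arrays or at 24 h. Their median change over the treated arrays was 0.28, with Mdm2 at 0.36 ± 0.19 (limma adjusted p = 0.462) and Cdkn1a at 0.16 ± 0.24 (adjusted p = 0.798). A lack of calls in this fit therefore does not show that a gene did not respond.

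The called gene was Zfp101, a zinc finger gene on chromosome 17. Its level was -1.24, -1.27, -1.45 and -1.86 in Atm+/+ cells at 0, 4, 8 and 24 h and -1.36, -1.32, -1.59 and -2.12 in Atm-/- cells. The 24 h arrays were the lowest of both genotypes. The change at 24 h was -0.69 ± 0.10 (SE, n = 2 arrays per time point, limma adjusted p = 0.0492). The call sits at the threshold and was lost under 6 of 8 other ways of processing, at adjusted p-values of 0.0255 to 0.212 over all 8, and when the 4 h or 8 h arrays were left out.

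Of the 10 Zfp genes with the largest changes at 24 h the others did not pass. Zfp59 stood at -1.90, -1.65, -1.34 and -0.93 in Atm+/+ cells and at -1.64, -1.54, -1.48 and -1.11 in Atm-/- cells, higher at each later time point in both. Its change at 24 h was 0.74 ± 0.14 (adjusted p = 0.0662). Zfp711 changed by -0.68 ± 0.14 at 24 h (adjusted p = 0.0671), with the values given above. Zfp367, first described in erythroid cells, stood at 1.71, 1.43, 0.90 and 1.06 in Atm+/+ cells and at 1.81, 1.89, 1.59 and 0.98 in Atm-/- cells. Its 4 arrays at 8 and 24 h were below both untreated arrays, with -0.74 ± 0.21 at 24 h (adjusted p = 0.112). Zfp606 changed by 0.80 ± 0.29 (adjusted p = 0.167) and Zfp831 by 1.09 ± 0.36 (adjusted p = 0.147). A second probe of Zfp606, also detected on all arrays, changed by only 0.21 at 24 h (limma adjusted p = 0.426). Zfp583 changed by 0.69 ± 0.25 (adjusted p = 0.171), which came from the Atm-/- 24 h array at -3.16, above -4.34 to -4.26 on the other Atm-/- arrays.

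For 3 of these genes the Atm+/+ 24 h reading was left out as an outlier spot, so the 24 h value rests on Atm-/- cells. Zfp428 stood at 2.06, 2.09, 1.98 and 1.05 there, a change of -1.07 ± 0.16 (adjusted p = 0.0582). Zfp7 stood at 1.17, 1.147, 1.16 and 0.39, a change of -0.79 ± 0.14 (adjusted p = 0.073). In both the 24 h array alone was low. Zfp260 changed by 0.68 ± 0.21 (adjusted p = 0.15).

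Zfp365 comes first among the genes with a role in DNA damage. Its human counterpart ZNF365 is a p53 target that acts at stalled replication forks. The level was 1.31, 1.92, 1.83 and 1.86 in Atm+/+ cells and 1.39, 1.55, 1.76 and 1.54 in Atm-/- cells. All 6 treated arrays were above both untreated arrays. The change over the treated arrays was 0.39 ± 0.12 (SE, adjusted p = 0.295), and the treated Atm+/+ arrays lay above the treated Atm-/- arrays. The difference of response, Atm-/- minus Atm+/+, was -0.34 ± 0.22 (adjusted p = 1). In Zfp764 too all 6 treated arrays were above both untreated ones, at 0.59, 0.77, 0.87 and 0.71 in Atm+/+ cells and 0.30, 0.85, 0.90 and 0.81 in Atm-/- cells, a change of 0.38 ± 0.11 (adjusted p = 0.283). For the other DNA damage genes, Zfp148, Zfp346, Zfp668, Zfp827 and Zfp830, the change over all treated arrays lay between -0.26 and 0.12, and none of the 6 was called in any comparison. Zfp148 and Zfp346 encode p53-binding proteins, and the human counterparts of Zfp668, Zfp827 and Zfp830 act in DNA repair or at telomeres.

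**Figure D5:**
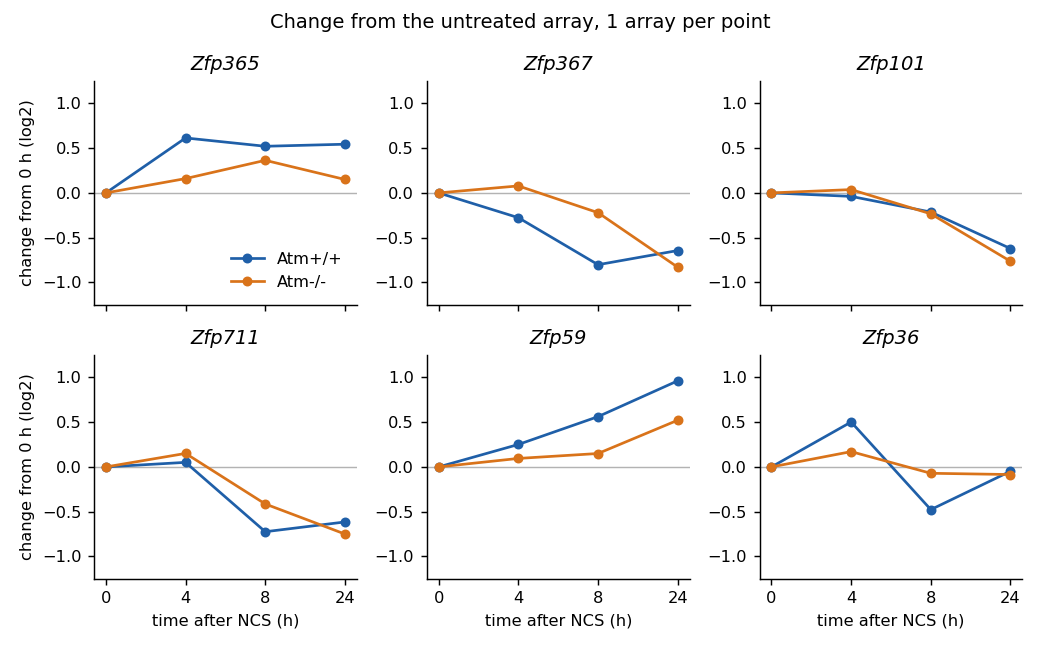
Log2 change from the 0 h array of the same genotype for 6 Zfp genes, 1 array per point, at 0, 4, 8 and 24 h after NCS. Zfp365 and Zfp59 lie above 0 on all 6 treated arrays, Zfp101 and Zfp367 are low at 24 h in both genotypes, and Zfp36 is highest at 4 h in both.

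At 4 h the largest change among the Zfp genes was that of Zfp750, a regulator of epidermal differentiation, at 0.70 ± 0.20 (adjusted p = 1.00). It rested mostly on Atm+/+ cells, where the level was -4.25 at 0 h and -3.13 at 4 h, against -3.94 and -3.65 in Atm-/- cells. The largest falls at 4 h were those of Zfp987, -0.63 ± 0.34, and Zfp664, -0.61 ± 0.39, and neither passed the test. Zfp36 encodes tristetraprolin, which binds AU-rich elements in mRNAs of cytokines and immediate-early genes and speeds their decay. It stood at 1.58, 2.08, 1.102 and 1.53 in Atm+/+ cells and at 1.84, 2.01, 1.77 and 1.76 in Atm-/- cells. The 4 h array was the highest of each genotype, with a change of 0.34 ± 0.19 at 4 h that did not pass the test (adjusted p = 1.00). The genotype difference of Zfp36 was 0.27 ± 0.13 (adjusted p = 0.225). Over the 8 arrays the genes whose levels were most like those of Zfp36, among 11417 compared, were Rbm18 (Pearson r = 0.97), Ednrb (0.96), Hoxc6 (0.92), Tab3 (0.92) and Cul5 (0.90). These arrays share genotype, slide and time, and picking the 5 highest of so many gives high values, so this is a description only.

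At 8 h the largest change was that of Zfp606 by the probe taken, 0.69 ± 0.29 (adjusted p = 0.447). Zfp622, whose protein works in the maturation of the large ribosomal subunit, stood at -3.96, -4.09, -4.59 and -3.97 in Atm+/+ cells and at -3.86, -4.04, -4.42 and -4.23 in Atm-/- cells. The 8 h array was the lowest of both, and the change was -0.59 ± 0.14 (adjusted p = 0.259). Zfp652 changed by -0.59 ± 0.32 at 8 h through 1 array, the Atm+/+ 8 h array at -2.95.

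Counted by direction alone, 28 of the 235 complete Zfp genes, or 11.9%, were above the 0 h array of their genotype on all 6 treated arrays, against 8.24% of all such probes. Below it on all 6 were 13, or 5.53%, against 11% of probes. The median change at 24 h was 0.06 over the Zfp genes and -0.07 over all probes. With marked spots removed before scaling, the median at 24 h was 0.24 over the Zfp genes and 0.12 over all probes, so the Zfp median stayed above that of all probes while the sign of the latter turned. Within a genotype each change is that of 1 array against another and has no replicate check. A 1.5-fold change at 24 h was seen in 10 Zfp genes upward (all probes 6.93%) and 10 downward (all probes 9.43%) of 237 in Atm+/+ cells, and in 26 upward (all probes 8.12%) and 7 downward (all probes 9.89%) of 256 in Atm-/- cells. Both directions together made 8.44% of the Zfp genes in Atm+/+ and 12.9% in Atm-/- cells. A 2-fold change at 24 h was seen in 0 of 237 in Atm+/+ cells (all probes 1.88% upward and 2.15% downward). In Atm-/- cells it was seen in Zfp583, Zfp617 and Zfp831 upward (all probes 1.99%) and in Zfp428 downward (all probes 2.5%). Zfp617 stood at -2.58, -2.62, -2.55 and -1.51 in Atm-/- cells, so its 24 h array alone was high.

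Whether the response to NCS differed between the genotypes was tested as an interaction, with 2 residual degrees of freedom. It was called for 0 of 259 Zfp genes and for 0% of all probes. At an unadjusted p under 0.05 there were 2 Zfp genes, or 0.772%, against 2.46% of probes. These were Zfp282 and Zfp438, named after their values were seen. Zfp282 stood at -4.86, -5.22, -5.21 and -5.11 in Atm+/+ cells and at -5.44, -4.99, -4.35 and -4.51 in Atm-/- cells. Its treated arrays were below 0 h in Atm+/+ and above it in Atm-/- cells, and the difference of response was 1.151 ± 0.31 (limma adjusted p = 1). The Atm-/- 0 h reading of Zfp282 is below the mean level of the dimmest gene taken, -5.34, so this size is uncertain. Opposite directions in the genotypes on all treated arrays were seen in 14 Zfp genes, or 5.96%, against 3.88% of probes.

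Other Zfp genes have known roles in silencing. Zfp57 and Zfp445 keep parental imprints, Zfp809 silences retroviral DNA through TRIM28, and Zfp708 binds retroelements. None of these 4 was called in any comparison, with genotype differences from 0.11 to 0.41. Zfp445 varied widely, at -3.12, -3.41, -2.59 and -3.85 in Atm+/+ cells and at -2.79, -2.73, -3.43 and -2.38 in Atm-/- cells, in no common order over time. Zfp809 stood at -0.11, 0.11, -0.12 and 0.13 in Atm+/+ cells and at -0.04, 0.14, 0.22 and 0.75 in Atm-/- cells, a change of 0.52 ± 0.17 at 24 h (adjusted p = 0.149). Its highest array was that of Atm-/- cells at 24 h.

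Of 6 genes with roles in mesenchyme and fat, Zfp217 was the only one called. Zfp423, a marker of cells committed to become fat cells, was higher in Atm-/- cells at each of the 4 time points but did not pass (0.32 ± 0.09, adjusted p = 0.0787). Zfp521, which opposes Zfp423 in that choice, had a difference of -0.33 ± 0.09 (adjusted p = 0.0859). Zfp703 was among the evenest, at 3.28 to 3.55 on all arrays. None of the 4 measured stem cell factors was called between genotypes (differences -0.33 for Zfp281, -0.19 for Zfp296, -0.19 for Zfp462 and 0.01 for Zfp143). Nor was any of 8 genes with roles in mitosis or RNA handling, among them the spindle protein gene Zfp207 and the SUMO ligase gene Zfp451.

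The partners of KRAB proteins give the other side of the pathway. Of 23 listed genes for TRIM28, histone and DNA methylation and the NuRD complex, 22 were detected on all arrays. Between genotypes 0 were higher and 1 was lower, Resf1, which works with SETDB1 in silencing retroelements. It stood at 0.36, 0.69, 0.63 and 0.56 in Atm+/+ cells and at -0.07, -0.10, -0.12 and 0.03 in Atm-/- cells, without overlap (-0.63 ± 0.09, adjusted p = 0.0151). The median of the 22 was -0.13. Trim28 itself differed by -0.06 ± 0.08 between genotypes (adjusted p = 0.647). After NCS it was lower on all treated arrays, at 5.71, 5.36, 5.35 and 5.29 in Atm+/+ and 5.55, 5.39, 5.40 and 5.14 in Atm-/- cells, but the change of -0.31 ± 0.09 did not pass (adjusted p = 0.283). The median change of the 22 at 24 h was -0.33, beside 0.06 for the Zfp genes and -0.07 for all probes. One of them was called lower at 24 h, Uhrf1, which carries DNA methylation through replication. It stood at 2.07, 1.503, 1.46 and 0.97 in Atm+/+ and 1.66, 1.58, 1.37 and 0.88 in Atm-/- cells, a change of -0.93 ± 0.14 (adjusted p = 0.0497). The call sits at the threshold. Of all probes 2.37% were called at 24 h, a share that fell to 0.142% with marked spots removed before scaling. That setting also moved the median of all probes at 24 h to 0.12, and the 22 genes were not followed under it.

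Other zinc finger families can be set beside the Zfp genes with the same fit. Between genotypes 1 of 28 Zbtb genes, 0 of 18 Zscan and Zkscan genes, 1 of 15 Zc3h genes and 1 of 24 genes named Zfp with a number and a letter were called, each of them lower in Atm-/- cells. Of 15 Klf genes 5 were called, all higher. Of all probes 7.28% were called higher and 7.38% lower. The differences between the families were not tested.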

How the data were processed

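RNA of 8 fibroblast cultures was measured on 8 one-colour Agilent arrays, 1 per genotype and time point, designed on mouse assembly mm9. Per the file headers, the authors read the scans with Feature Extraction 10.5.1.1, and the deposited processed signal is a background-subtracted intensity that was not normalized between arrays. Detection and outlier marks per spot come from the same deposited files. Other deposited tables hold noncoding probes only and were not used.

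Control spots were left out, spots of a probe averaged as log2 intensity, and the array's 75th percentile subtracted. Readings whose spots were all marked as outliers were left out, and 23305 of 37246 probes, well above background on at least 2 arrays, were kept. limma 3.58.1 in R 4.3.3 fitted time point and genotype (3 residual degrees of freedom), and a genotype by treatment term for the difference of response. Tests were two-sided, with Benjamini-Hochberg adjustment over all kept probes. Single-array folds were counted without a test. The fit was tested on simulated data. Symbols, gene order and promoters came from RefSeq tables (GRCm38.p6). No mm9 coordinates are given, and no reading of these genes was saturated.

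Genes listed were, per comparison, those called or, where fewer than 10 were called, the 10 with the largest changes, plus genes of the role lists. Of the 10 listed at 4 h, at 8 h and over all treated arrays, only some are described. The genes, lists and promoter letters were chosen with earlier results of these data known. The number of arrays limits the precision. Alternatives were the normexp background on median signals, quantile and median scaling, outlier removal before scaling, other filters, trend and robust moderation, means over probes, no time term, and leaving out arrays.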

Additional observations from a re-analysis of the deposited data

Results flagged for a closer look

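Within the 4 arrays of a genotype, single arrays stood apart by Dixon's ratio in 11 of 120 sets examined, or 9.17%. The sets came from 64 Zfp genes, those listed by comparison or role. Chance flags about 1 in 20, but genes named for large changes were picked from the same values. A single stray array can place a gene among them, so this share cannot be compared with chance. The samples of a genotype differ in time after NCS, so a set is not made of replicates. On the Atm-/- 24 h array, Zfp428 stood at 1.05 with the other arrays at 1.98 to 2.09, Zfp7 at 0.39 against 1.147 to 1.17, Zfp583 at -3.16 against -4.34 to -4.26, Zfp467 at -0.15 against -0.41 to -0.38, and Zfp652 at -1.62 against -2.06 to -2.04. Zfp652 was also apart on the Atm+/+ 8 h array, at -2.95 against -1.77 to -1.71. On the Atm+/+ 24 h array Zfp207, which helps chromosomes attach to the spindle, stood at 2.01 against 2.49 to 2.56. The untreated array was apart for Zfp365 in Atm+/+ cells, at 1.31 against 1.83 to 1.92, for Zfp37 in Atm+/+ cells, at -0.13 against -0.17, and for Zfp764 in Atm-/- cells, at 0.30 against 0.81 to 0.90. Zfp664 was low on the Atm-/- 4 h array, at 2.50 against 3.65 to 3.88.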

How the results depend on the processing

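The labels give no replicate numbers. The genotype test pairs the genotypes by time point, a term of the fit, and the fit with no time term is its unpaired form. The 17 genotype calls became 11 with outliers removed before scaling, 8 with no filter on dim probes, 28 with trend and robust moderation and 10 with no time term, and ran from 1 to 28 when arrays were left out. The share of all probes called moved beside these 4 settings from 14.7% to 9.65%, 5.72%, 17.9% and 9.62%. No genotype difference of the 17 turned its sign under any setting. This adds little, as the 17 were picked for differences large beside their SE in the same arrays. At 24 h the 1 call became 0 with median centring, with outliers removed first, with no filter and with means over probes, 9 with only probes detected on 8 arrays and 6 with trend and robust moderation. Over all probes the 2.37% called at 24 h became 1.37%, 0.142%, 0%, 1.84%, 6.22% and 7.19% under these settings in the same order. The 1 call ran from 0 to 0 when arrays were left out, and it was Zfp428 with the normexp background and Zfp870 with quantile scaling. Any change over time gave 2 calls, Zfp428 and Zfp593, with trend and robust moderation. All-probe calls between genotypes numbered 3416, of which 49.6% were higher in Atm-/- cells, against 37.2% with normexp and 39.9% with outliers removed first. That last setting moved the median of all probes at 24 h from -0.07 to 0.12, and in the difference of response from 0.01 to -0.11. Signal near background limits the dimmest genes.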
